A study of Rattus norvegicus with 11 samples.

Results

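Fatty acid oxidation and its gatekeepers are followed here through 10 genes of rat white adipose tissue: Cpt1a, Cpt1b, Cpt2, Slc25a20, Acacb, Acadm, Acadl, Acadvl, Hadha and Pdk4. They were chosen by name, as the steps that admit long-chain fatty acids to mitochondria, the first enzymes that shorten them there, and a switch that spares glucose. Earlier results of these data were known when the 10 were chosen. The table of 25275 genes held each of the 10 once, and all 10 were among the 12846 genes with enough counts to be tested. The study sequenced RNA of retroperitoneal fat from 11 wild-type female Wistar rats, 1 library per animal, to ask what follicle-stimulating hormone (FSH) does to this depot. The degarelix plus FSH group held 5 rats whose osmotic pumps released FSH at 6 µg per kg per day, and the degarelix only group held 6 rats whose pumps held vehicle. All 11 had lost their ovaries and had been given degarelix, which blocks the receptor for gonadotropin-releasing hormone and so lowers the animals' own gonadotropins, so that neither group shows the depot with ovaries or without degarelix. All 11 also shared the schedule of a western diet from 10 weeks of age, 6 weeks before surgery, limited food for 12 days, free food for 7 days, a 4 h fast and harvest at 19 weeks of age.

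Long-chain fatty acids, once activated to acyl-CoA, cross into mitochondria only as carnitine esters. Carnitine palmitoyltransferase 1, made in a liver-type form (Cpt1a) and a muscle-type form (Cpt1b), forms the ester on the outer membrane, the carrier Slc25a20 exchanges it across the inner membrane, and Cpt2 turns it back to acyl-CoA. Malonyl-CoA, made near the outer membrane by acetyl-CoA carboxylase 2 (Acacb), inhibits carnitine palmitoyltransferase 1, and the kinase Pdk4 turns off pyruvate dehydrogenase, so that fatty acids rather than glucose feed the mitochondria. In white fat, which mostly stores and releases fatty acids, oxidation is a minor route compared with muscle, liver or brown fat.

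RefSeq's promoter table (assembly GRCr8, whereas the counts were made on rn6) held 8 of the 10 genes, each with 250 bases before and 50 bases after the start of the gene. Those of Cpt1a and Acacb are printed because these genes had the smallest p-values of the 10, and that of Acadm because it held a cyclic AMP response element. The capitals mark AGGTCA, the half-site of many nuclear receptors, on either strand (TGACCT on the other), and TGACGTCA, the cyclic AMP response element.
Cpt1a, chr1:209995910-209996209, plus strand: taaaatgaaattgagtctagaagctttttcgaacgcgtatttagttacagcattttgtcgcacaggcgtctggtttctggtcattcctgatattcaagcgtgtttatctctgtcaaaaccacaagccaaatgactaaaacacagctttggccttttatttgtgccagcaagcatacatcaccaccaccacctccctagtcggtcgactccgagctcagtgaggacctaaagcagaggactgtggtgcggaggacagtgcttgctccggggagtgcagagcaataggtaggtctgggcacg
Acacb, chr12:48138165-48138464, minus strand: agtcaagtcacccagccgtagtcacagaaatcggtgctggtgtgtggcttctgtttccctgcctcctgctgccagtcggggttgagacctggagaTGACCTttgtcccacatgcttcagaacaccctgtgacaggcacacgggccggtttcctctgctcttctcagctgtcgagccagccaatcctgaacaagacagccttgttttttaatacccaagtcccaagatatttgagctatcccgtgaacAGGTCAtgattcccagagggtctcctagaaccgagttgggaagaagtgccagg
Acadm, chr2:245542815-245543114, minus strand: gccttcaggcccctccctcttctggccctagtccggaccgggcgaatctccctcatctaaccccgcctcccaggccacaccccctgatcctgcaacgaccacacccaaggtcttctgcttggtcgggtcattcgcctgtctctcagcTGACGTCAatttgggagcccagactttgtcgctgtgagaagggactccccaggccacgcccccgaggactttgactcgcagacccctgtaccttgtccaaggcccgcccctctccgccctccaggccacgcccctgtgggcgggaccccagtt
The Cpt1a window held neither motif, and the Acacb window held AGGTCA on both strands, at -155 and -3 bases from the start of the gene. AGGTCA lay in 2 of the 8 windows, those of Acadvl and Acacb, against 16.2% of all 33469 promoters of the same length. TGACGTCA, which reads the same on both strands, lay in that of Acadm alone, at -103, against 1.83% of all promoters. A direct repeat of AGGTCA spaced by 1 base, searched in its exact letters, lay in 0 of the 8 and in 0.0538% of all promoters. On either strand, GGGCGG, the GC box, lay in 5 of the 8 (Cpt2, Slc25a20, Acadm, Hadha and Pdk4) and in 33.1% of all, and CCAAT, the CCAAT box, in 3 of the 8 (Acacb, Hadha and Pdk4) and in 37.5% of all. These matches describe letters in the windows only.

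Among the 10 genes, Cpt1a was higher in rats given FSH, at 1.38 times its level in degarelix only rats. Acacb had a fold of 1.40 but did not pass the test, and Pdk4 varied too much between rats to separate the groups. The other 7 genes, from Cpt1b to the enzymes of the mitochondrial matrix, had log2 changes between -0.16 and 0.14, and none passed. Levels are CPM, counts relative to the scaled library total, changes are log2 of degarelix plus FSH over degarelix only with their standard error (SE), and p-values come from edgeR's quasi-likelihood test, adjusted over all 12846 genes with a threshold of 0.05. Over all genes tested, 2.27% passed in either direction, 1.21% as higher and 1.07% as lower with FSH. Of the 10 genes 1 passed, as higher, and 2 (Cpt1a and Acacb) had an unadjusted p under 0.05, as did 22.6% of all genes. The 2 groups of rats overlapped in all 10 genes, while 4.34% of all genes had groups that did not overlap. The median log2 change of the 10 was 0.09 and that of all genes 0.00812. The median of the 10 ran from 0.04 without FSH replicate 3 to 0.13 without FSH replicate 2, and was 0.16 with library totals only, which put that of all genes at 0.0775. The median size of change was 0.141 for the 10 and 0.147 for all genes. In these whole-tissue libraries, fewer cells of a type and less RNA per cell cannot be told apart.

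**Figure D1:**
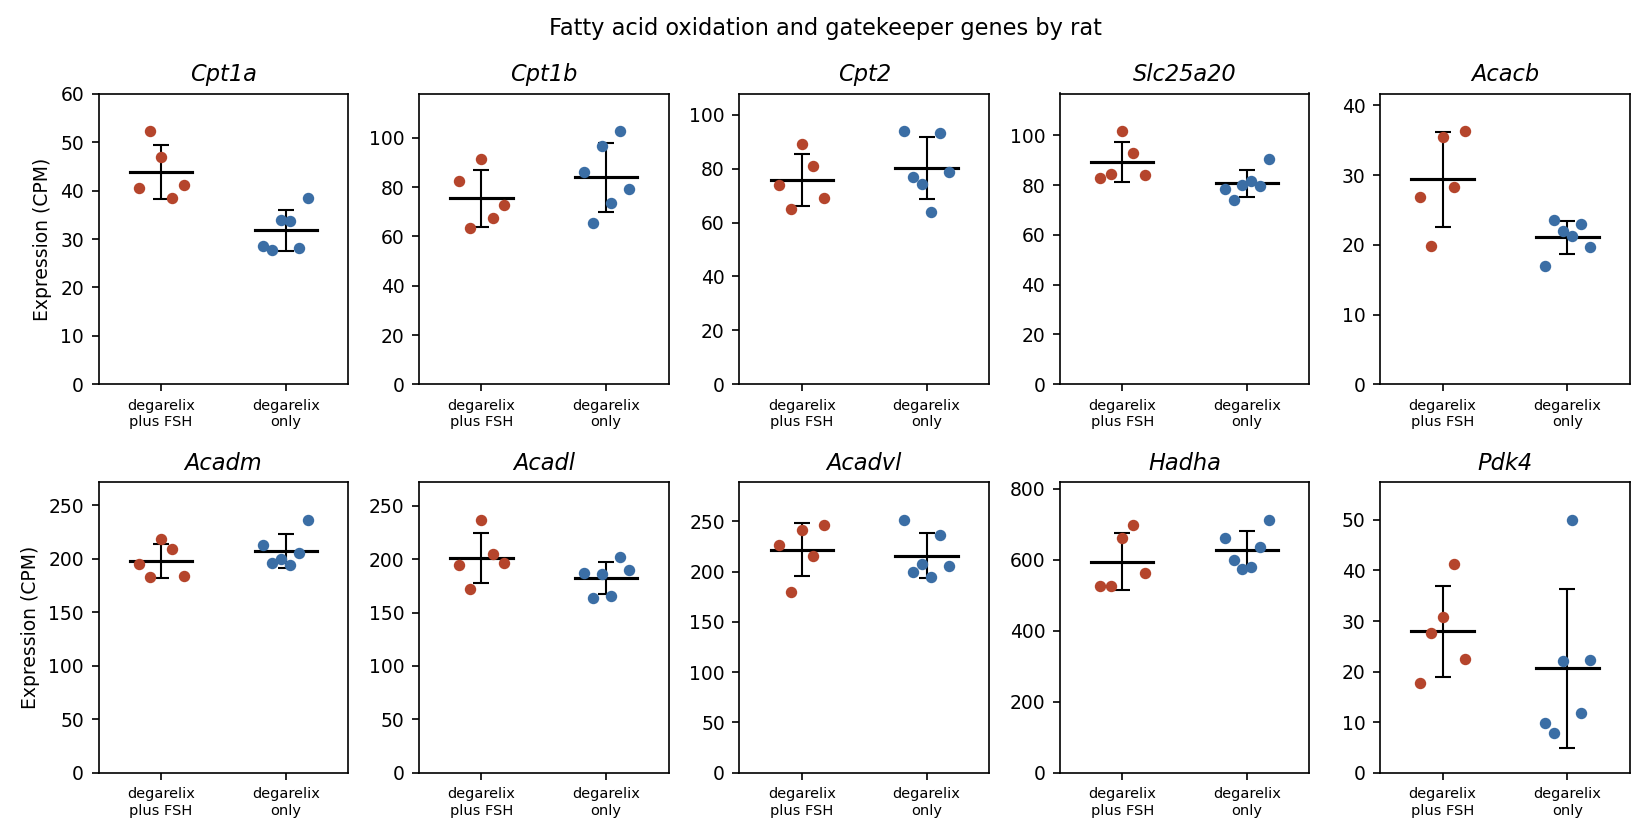
Level of each of the 10 genes in every rat (CPM, vertical axes starting at 0), with degarelix plus FSH on the left and degarelix only on the right of each panel; points are rats and bars give the mean and SD. Cpt1a and Acacb each have 4 of 5 FSH rats above the highest degarelix only rat, and the widest scatter is that of Pdk4 in degarelix only rats.

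Total counts per library ran from 13163021 to 19837706 in the FSH rats and from 16452117 to 23694602 in the degarelix only rats, and the lowest count of any of the 10 genes in any library was 184, for Pdk4. All 10 white adipocyte markers were detected, with summed levels of 42143 to 56055 CPM in FSH rats and 39303 to 49317 CPM in degarelix only rats. Replicate 3 of the FSH group stood apart in 2 defining genes of brown fat. There Ucp1, the uncoupling protein, had 100 counts and Cox8b, a respiratory chain subunit of brown fat and muscle, 106 counts. The other libraries had at most 2 and 4 counts. Zic1, another brown fat marker, had no counts in any library, and the 7 of 8 markers matched summed to 112 to 185 CPM in FSH rats and 117 to 204 CPM in degarelix only rats. In this sum FSH replicate 3 was highest of its group, at 185 CPM, but below degarelix only replicate 6, at 204 CPM. FSH replicate 3 also had the highest FSH-group level of Cpt1b, Cpt2, Slc25a20, Acadm and Acadl, so values without it are given below. Of 12 skeletal muscle markers, 10 were matched, and they summed to 12.0 to 14.8 CPM in FSH rats and 11.5 to 17.6 CPM in degarelix only rats, and Ckm, muscle creatine kinase, had 3 counts in all 11 libraries together.

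Cpt1a (ENSRNOG00000014254), the liver-type gatekeeper enzyme, stood at 40.5, 52.3, 46.9, 38.5 and 41.1 CPM in the 5 FSH rats, against a lowest, median and highest level of 27.9, 31.1 and 38.5 CPM in the degarelix only rats. All 5 FSH rats lay above the degarelix only median and 4 lay above its highest rat, with the remaining one almost level with it. The means were 43.9 ± 5.64 CPM (SD, n = 5) with FSH and 31.8 ± 4.29 CPM (SD, n = 6) with degarelix only, a log2 change of 0.46 ± 0.10 (SE, 95% interval 0.23 to 0.70, edgeR adjusted p = 0.0440). This placed Cpt1a 236th of all genes by p. The call held when replicate 4 of either group was left out and was lost when any other rat was left out, with an adjusted p up to 0.102 without FSH replicate 2, the rat with the highest Cpt1a. The log2 change stayed between 0.39 and 0.53 in these 11 fits. The call was also lost with no low-count filter, at an edgeR adjusted p of 0.0529.

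Endothelial markers moved in the same direction as Cpt1a: all 8 that were tested had a higher mean with FSH, 1 of them (Tek, log2 change 0.44, edgeR adjusted p = 0.0431) past the threshold. Their summed levels were 1618 to 2638 CPM in FSH rats (median 2015) and 1425 to 1932 CPM in degarelix only rats (median 1613). All 6 smooth muscle markers also had a higher mean with FSH, 1 of them (Smtn, log2 change 0.68, edgeR adjusted p = 0.00509) past the threshold, with sums of 625 to 933 CPM in FSH rats and 526 to 715 CPM in degarelix only rats. Both sums were highest in FSH replicate 1, at 2638 and 933 CPM, a rat with 40.5 CPM of Cpt1a. The rat with the highest Cpt1a, FSH replicate 2, had 2015 CPM of endothelial markers. Its 625 CPM of smooth muscle markers was the lowest of the FSH rats. It was highest of the FSH rats in summed macrophage markers, at 401 CPM, where the ranges were 187 to 401 CPM with FSH and 203 to 460 CPM with degarelix only. The part of these cell types in the Cpt1a values was not tested.

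Cpt1b (ENSRNOG00000010438), the muscle-type form, stood at 82.4, 63.4, 91.4, 67.5 and 72.7 CPM in FSH rats, against a lowest, median and highest level of 65.5, 82.9 and 103 CPM in degarelix only rats. The groups overlapped broadly, with 4 of 5 FSH rats under the degarelix only median. The means were 75.5 ± 11.4 CPM (SD, n = 5) with FSH and 84.1 ± 14.1 CPM (SD, n = 6) with degarelix only, and the log2 change was -0.16 ± 0.13 (SE, 95% interval -0.44 to 0.13, edgeR adjusted p = 0.490). Without FSH replicate 3 it was -0.23 (edgeR adjusted p = 0.323).

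The balance of the 2 forms was measured as the ratio of Cpt1a to Cpt1b counts within each library, which needs no scaling between libraries; gene length enters both groups alike. The ratio was 0.492, 0.825, 0.514, 0.571 and 0.566 in FSH rats, against a lowest, median and highest ratio of 0.275, 0.388 and 0.485 in degarelix only rats. Every FSH rat lay above every degarelix only rat. On the log2 scale the means were -0.78 ± 0.29 (SD, n = 5) with FSH and -1.39 ± 0.31 (SD, n = 6) with degarelix only, a difference of 0.62 or 1.53-fold (two-sided exact permutation over 462 splits of the rats, p = 0.00433, adjusted p = 0.0162 over 5 ratios). The smallest p this test can give is 0.00216. The ratio no longer passed without FSH replicate 2 (0.49, permutation adjusted p = 0.0595) or without FSH replicate 5 (0.63, permutation adjusted p = 0.0655). The 5 ratios reuse genes whose own changes are given here, so they are not independent of those changes. For single genes, 4.34% of all genes had groups that did not overlap, and no such share was measured for gene pairs.

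Cpt2 (ENSRNOG00000012443), the inner-membrane transferase, stood at 73.9, 65.0, 89.3, 81.1 and 69.1 CPM with FSH and had a lowest, median and highest level of 64.1, 77.7 and 93.8 CPM with degarelix only. Slc25a20 (ENSRNOG00000020288), the carnitine-acylcarnitine carrier, stood at 82.8, 84.3, 102, 92.8 and 83.8 CPM with FSH and at 74.2, 79.7 and 90.4 CPM (lowest, median, highest) with degarelix only. Cpt2 showed no separation of the groups, while all 5 FSH rats lay above the degarelix only median of Slc25a20 and 2 lay above its highest rat. The log2 change of Cpt2 was -0.08 ± 0.11 (SE, 95% interval -0.33 to 0.17, edgeR adjusted p = 0.688). That of Slc25a20 was 0.14 ± 0.07 (SE, 95% interval -0.01 to 0.30, edgeR adjusted p = 0.247), and 0.09 without FSH replicate 3 (edgeR adjusted p = 0.450). Set against Cpt2 within each library, Cpt1a was 1.46-fold higher with FSH, with log2 ratios of -0.79 ± 0.29 (SD, n = 5) with FSH and -1.33 ± 0.35 (SD, n = 6) with degarelix only (exact permutation p = 0.0195, adjusted p = 0.0325). In 4 of 5 FSH rats this ratio lay above every degarelix only rat. It no longer passed when any rat but degarelix only replicate 4 or 6 or FSH replicate 4 was left out (permutation adjusted p up to 0.0794).

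**Figure D2:**
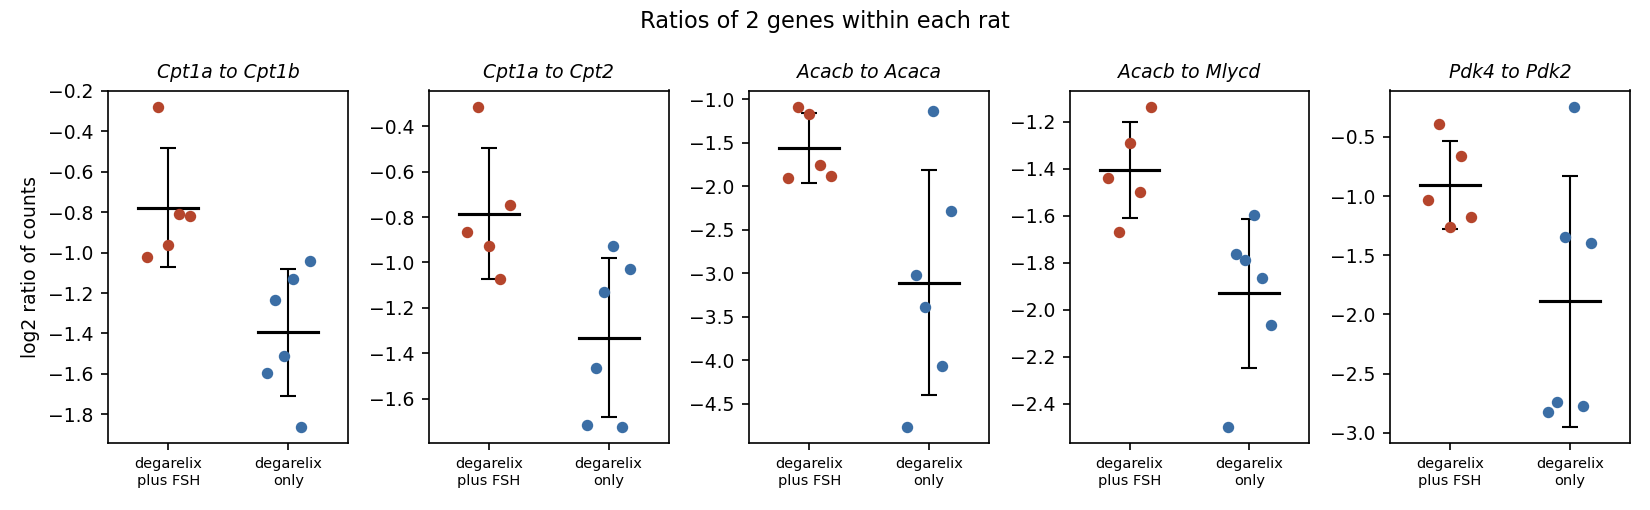
Within-library log2 ratios of counts of 5 gene pairs, one point per rat, degarelix plus FSH on the left and degarelix only on the right, with mean and SD. For Cpt1a to Cpt1b the 5 FSH rats lie above all 6 degarelix only rats, and for Pdk4 to Pdk2 the groups overlap.

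Acacb (ENSRNOG00000000658), whose product makes the malonyl-CoA that restrains Cpt1, stood at 26.9, 19.9, 35.5, 28.3 and 36.3 CPM in FSH rats, against a lowest, median and highest level of 17.0, 21.6 and 23.5 CPM in degarelix only rats. Of the FSH rats, 4 lay above every degarelix only rat and replicate 2, the one with the highest Cpt1a, lay below the degarelix only median. The means were 29.4 ± 6.75 CPM (SD, n = 5) with FSH and 21.0 ± 2.41 CPM (SD, n = 6) with degarelix only. The log2 change was 0.48 ± 0.14 (SE, 95% interval 0.16 to 0.81), with an edgeR adjusted p of 0.0906. With limma-voom the adjusted p was 0.111. DESeq2's Wald test, which called 1135 genes against 292 in the edgeR fit, gave an adjusted p of 0.0315. In the 11 edgeR fits with 1 rat left out Acacb never passed, with an adjusted p of 0.0622 to 0.184.

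Acaca (acetyl-CoA carboxylase 1), whose malonyl-CoA is used mainly to build fatty acids, stood at 101, 42.2, 79.8, 95.9 and 133 CPM with FSH and had a lowest, median and highest level of 46.7, 210 and 463 CPM with degarelix only. All 5 FSH rats lay under the degarelix only median, yet the degarelix only rats spanned a wider range, and replicates 4 and 6 there lay within that of the FSH rats. Its log2 change was -1.38 ± 0.52 (SE, edgeR adjusted p = 0.154). The within-library ratio of Acacb to Acaca averaged -1.56 ± 0.40 (log2, SD, n = 5) with FSH and -3.11 ± 1.29 (log2, SD, n = 6) with degarelix only, a 2.93-fold difference (exact permutation p = 0.0390, adjusted p = 0.0487). Only 1 of 5 FSH rats lay above every degarelix only rat, and all 5 above the median. This ratio passed without degarelix only replicate 4 or 6 and did not pass when any other rat was left out (permutation adjusted p up to 0.101).

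Mlycd, malonyl-CoA decarboxylase, which breaks malonyl-CoA down, averaged 76.6 ± 8.93 CPM (SD, n = 5) with FSH and 80.4 ± 10.4 CPM (SD, n = 6) with degarelix only (log2 change -0.07 ± 0.10, SE, edgeR adjusted p = 0.719). The log2 ratio of Acacb to Mlycd, the maker over the breaker, was -1.41 ± 0.20 (SD, n = 5) with FSH and -1.93 ± 0.32 (SD, n = 6) with degarelix only, 1.44-fold higher (exact permutation p = 0.00649, adjusted p = 0.0162). In 4 of 5 FSH rats it exceeded every degarelix only rat. It did not pass without FSH replicate 2, 3 or 5 (permutation adjusted p up to 0.0655).

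Among the acyl-CoA dehydrogenases, which take the first step of each round of oxidation, Acadm (ENSRNOG00000009845) acts on medium chains, Acadl (ENSRNOG00000012966) on long chains and Acadvl (ENSRNOG00000018114) on very long ones. Acadm stood at 195, 183, 219, 209 and 184 CPM with FSH and at 195, 203 and 236 CPM (lowest, median, highest) with degarelix only. Acadl stood at 195, 172, 237, 205 and 196 CPM with FSH and at 164, 187 and 202 CPM (lowest, median, highest) with degarelix only. Acadvl stood at 226, 180, 241, 216 and 246 CPM with FSH and at 194, 207 and 251 CPM (lowest, median, highest) with degarelix only. The groups overlapped in all 3, with 4 of 5 FSH rats above the degarelix only median for Acadl and Acadvl and 2 of 5 for Acadm. Their log2 changes were -0.07 ± 0.07 for Acadm (edgeR adjusted p = 0.606), 0.14 ± 0.08 for Acadl (edgeR adjusted p = 0.347) and 0.04 ± 0.09 for Acadvl (edgeR adjusted p = 0.837), each with its SE.

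Hadha (ENSRNOG00000024629), the alpha subunit of the trifunctional protein that carries out the later steps on long chains, stood at 525, 526, 661, 699 and 562 CPM with FSH and at 574, 618 and 712 CPM (lowest, median, highest) with degarelix only. Of the FSH rats, 3 lay below every degarelix only rat and the other 2 above the degarelix only median. The log2 change was -0.08 ± 0.10 (SE, 95% interval -0.30 to 0.14, edgeR adjusted p = 0.665). Across the 6 carriers and matrix enzymes (Cpt2, Slc25a20, Acadm, Acadl, Acadvl and Hadha) log2 changes lay between -0.08 and 0.14 with adjusted p of 0.247 to 0.837. Their 95% intervals together ran from -0.33 to 0.33, which leaves room for folds between 0.795 and 1.26. Without FSH replicate 3 the log2 changes were -0.15 for Cpt2, -0.11 for Acadm, 0.07 for Acadl, 0.01 for Acadvl and -0.12 for Hadha, and none passed.

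**Figure D3:**
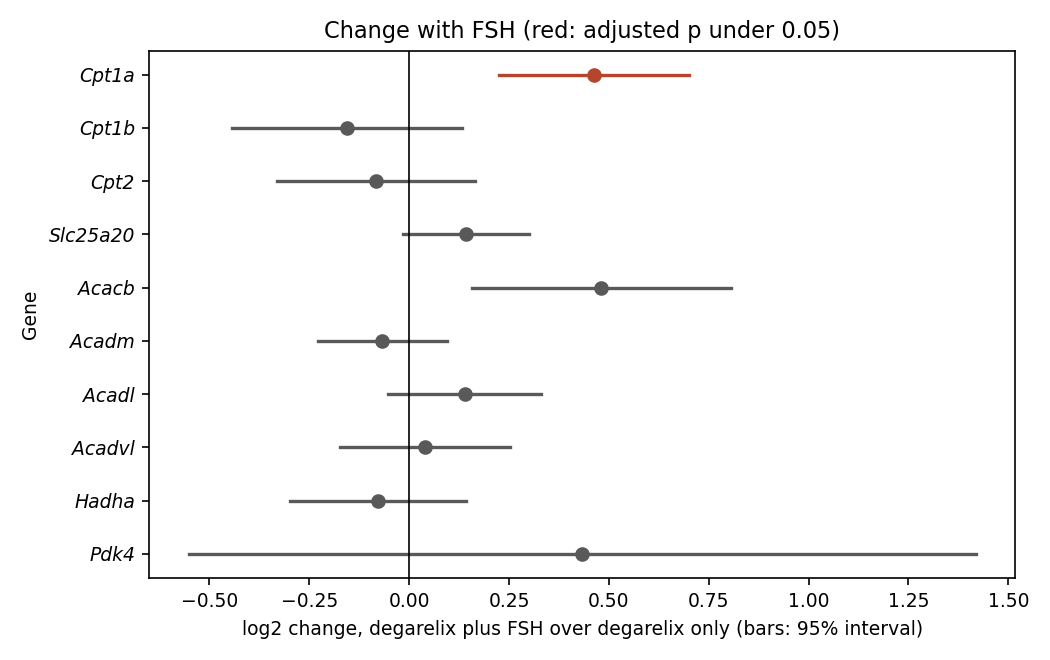
Log2 change (degarelix plus FSH over degarelix only) of the 10 genes, with 95% intervals and a line at 0. The intervals of Cpt1a and Acacb lie above 0, the interval of Pdk4 is the widest, from -0.55 to 1.42, and the 6 carriers and matrix enzymes cluster near 0.

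Pdk4 (ENSRNOG00000009565), which shuts the entry of pyruvate into oxidation and is known to be induced by fasting, stood at 17.7, 27.6, 30.8, 41.2 and 22.4 CPM in FSH rats, against a lowest, median and highest level of 7.78, 16.9 and 50.0 CPM in degarelix only rats. All 5 FSH rats lay above the degarelix only median, but the highest rat of all was degarelix only replicate 4. The highest rat exceeded the lowest by 2.33-fold within the FSH group and by 6.43-fold within the degarelix only group. The log2 change was 0.43 ± 0.44 (SE, 95% interval -0.55 to 1.42, edgeR adjusted p = 0.582). Without degarelix only replicate 4 it was 0.92 (edgeR adjusted p = 0.123), and without FSH replicate 4 it was 0.25 (edgeR adjusted p = 0.784). Degarelix only replicate 4 also had the lowest Acaca, and the highest summed macrophage and lymphocyte markers, of its group, at 460 and 50.5 CPM.

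Pdk2, the isoform less tied to fasting, averaged 52.6 ± 17.0 CPM (SD, n = 5) with FSH and 62.9 ± 10.7 CPM (SD, n = 6) with degarelix only (log2 change -0.26 ± 0.19, SE, edgeR adjusted p = 0.453). The log2 ratio of Pdk4 to Pdk2 was -0.91 ± 0.37 (SD, n = 5) with FSH and -1.89 ± 1.06 (SD, n = 6) with degarelix only, a difference of 0.98 that did not pass (exact permutation p = 0.0931, adjusted p = 0.0931). Without degarelix only replicate 4 the difference was 1.31 and passed (permutation adjusted p = 0.00992). It did not pass when any other rat was left out (permutation adjusted p of 0.0857 to 0.175).

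The 10 genes were next compared with one another over the 11 rats, after each group's mean had been removed. Of the 45 pairs, 34 correlated positively, and 0 passed by Pearson's r after adjustment over the 45 (100000 permutations within groups, lowest adjusted p = 0.0581), while 11 had an unadjusted permutation p under 0.05. The closest pair was Acadm and Hadha, with r = 0.86 and rho = 0.77 (permutation p of r = 0.0026), and r = 0.83 without the 2 rats farthest from the median of Acadm. By rank, 4 pairs passed, each with a permutation adjusted p of 0.0458: Cpt2 with Acadl (rho 0.84), Acadm with Acadl (rho 0.84), Cpt2 with Acadm (rho 0.85) and Slc25a20 with Pdk4 (rho 0.77). All 15 pairs among the 6 carriers and matrix enzymes were positive, with r from 0.10 to 0.86 and a median of 0.67, and from -0.02 to 0.83 with 2 rats left out of each. Cpt1a was positive with 3 of the other 9 genes, with r from -0.54 to 0.52 and a median of -0.08. The values of a rat share 1 library and its scaling.

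**Figure D4:**
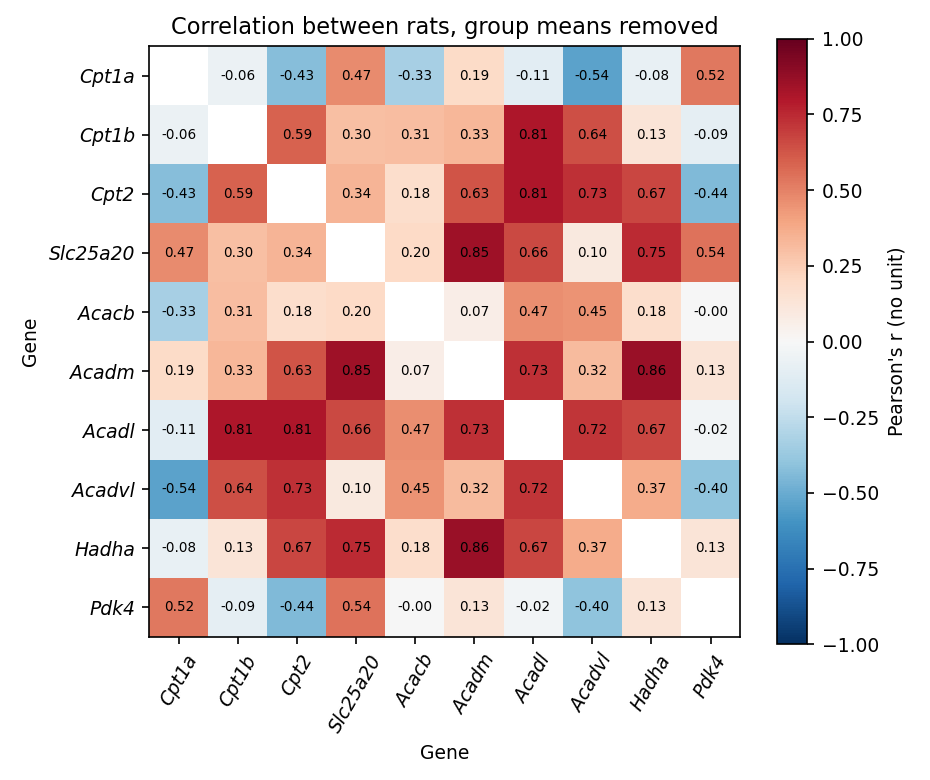
Pearson's r between each pair of the 10 genes over 11 rats, group means removed, on a colour scale from -1 to 1. The block of carriers and matrix enzymes is positive throughout, and the row of Cpt1a is mixed.

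In a search over 11936 genes and all 11 libraries the group means were kept, so differences between the groups enter r. The profiles most like that of Cpt1a were those of Tmcc3 (r = 0.99), Efnb1 (r = 0.95) and Celf6 (r = 0.94). Those most like Acacb were Setd2 (r = 0.94), Lrrc49 (r = 0.91) and Enkd1 (r = 0.90). For Pdk4 they were Whamm (r = 0.96), Sema3e (r = 0.95) and Irs2 (r = 0.95). These are the 3 highest of many correlations and are given as a description.

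Around the 10 genes, 107 genes of 8 pathway lists were followed, of which 100 were tested, each counted once. Of these, 4 passed, or 4% beside the 2.27% of all genes: Etfb and Vnn1 were higher with FSH, and Rxra and Bdh1 were lower. In each of the 4 the groups did not overlap, and no further gene of the 100 had groups apart. That share of 4% is near the 4.34% of all genes whose groups did not overlap.

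A list of 18 other genes of mitochondrial beta-oxidation also held electron carriers and dehydrogenases of amino acid breakdown (Acadsb, Acad8 and Ivd). It included Echs1, counted as lower, at only 5 to 15 counts per library. Of the 18, 6 had a higher and 12 a lower mean with FSH (median log2 change -0.10), and 1 passed. That was Etfb, a subunit of the electron transfer flavoprotein that takes electrons from the acyl-CoA dehydrogenases, at 282, 310, 279, 326 and 309 CPM with FSH and 188, 208 and 244 CPM (lowest, median, highest) with degarelix only. Its log2 change was 0.51 ± 0.08 (SE, edgeR adjusted p = 0.0160), and of the 11 fits with 1 rat left out the call was lost in 1, that without FSH replicate 2 (edgeR adjusted p = 0.0604). Its electron acceptor partner Etfdh had a log2 change of -0.15 ± 0.11 (SE, edgeR adjusted p = 0.455). Hadhb, the partner subunit of Hadha, had a log2 change of -0.27 ± 0.11 (SE, edgeR adjusted p = 0.182), and Eci1, an isomerase for unsaturated chains, 0.41 ± 0.12 (SE, edgeR adjusted p = 0.0813).

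Of 9 tested genes of carnitine supply and acylcarnitine handling, 5 had higher and 4 lower means (median log2 change 0.03, and -0.00480 without degarelix only replicate 1) and none passed. Acsl1, the main adipocyte acyl-CoA synthetase that activates fatty acids before Cpt1, had a log2 change of -0.33 ± 0.15 (SE, edgeR adjusted p = 0.222), and Crot, the peroxisomal carnitine octanoyltransferase, 0.29 ± 0.12 (SE, edgeR adjusted p = 0.176). A list for malonyl-CoA and AMP kinase control also held Bckdk, a kinase of amino acid breakdown, counted as lower (log2 change -0.11). Of its 15 genes, 4 had higher and 11 lower means (median -0.07) and none passed. That split depended on the scaling, with 8 higher, 7 lower and a median of 0.00234 when library totals alone were used, a scaling that put the median of all genes at 0.0775. Of 13 genes of pyruvate dehydrogenase and pyruvate entry, 1 had a higher and 12 a lower mean and none passed. Their median was -0.26, between -0.37 and -0.20 with 1 rat left out. The list pools subunits of the complex with kinases that turn it off, so its split gives no direction for pyruvate entry. The lower ones included Dlat, a core subunit of the complex (log2 change -0.56 ± 0.21, SE, edgeR adjusted p = 0.150), and the kinase Pdk2 (-0.26). The higher one was the kinase Pdk3 (0.12 ± 0.15, SE, edgeR adjusted p = 0.649).

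Among 16 tested transcriptional regulators 5 had higher and 11 lower means (median -0.09), and 1 passed. That was Rxra, the partner receptor of the PPAR family, at 36.9 ± 7.58 CPM (SD, n = 5) with FSH and 60.6 ± 9.59 CPM (SD, n = 6) with degarelix only. Its log2 change was -0.72 ± 0.14 (SE, edgeR adjusted p = 0.0335), and the call was lost without degarelix only replicate 1, 5 or 6 or FSH replicate 1, 2 or 5 (edgeR adjusted p up to 0.0893). Pparg, the adipocyte receptor of that family, had a log2 change of -0.38 ± 0.11 (SE, edgeR adjusted p = 0.0893). Ppara, the family member that drives oxidation genes in liver, had 5 to 13 counts per library, and its coactivator Ppargc1a 0 to 10, too few to test.

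Of 13 tested fasting and PPAR target genes, 9 had higher and 4 lower means, with a median log2 change of 0.12 (0.09 to 0.24 with 1 rat left out), and 1 passed. That was Vnn1, a pantetheinase, which averaged 10.8 ± 0.646 CPM (SD, n = 5) with FSH and 6.79 ± 1.18 CPM (SD, n = 6) with degarelix only. Its log2 change was 0.66 ± 0.12 (SE, edgeR adjusted p = 0.0263), lost without degarelix only replicate 1 or 6 or FSH replicate 1, 2, 3 or 5 (edgeR adjusted p up to 0.0718). Angptl4, another fasting target, averaged 690 ± 121 CPM (SD, n = 5) with FSH and 453 ± 317 CPM (SD, n = 6) with degarelix only (edgeR adjusted p = 0.459).

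Of 5 ketone body enzymes, 4 had higher and 1 a lower mean (median 0.07), but without degarelix only replicate 3 it was 2 higher and 3 lower, with a median of -9.86e-05. Bdh1, which converts the ketone bodies acetoacetate and beta-hydroxybutyrate into each other, passed as lower, at 8.86 ± 1.11 CPM (SD, n = 5) with FSH and 13.6 ± 2.44 CPM (SD, n = 6) with degarelix only. The log2 change of Bdh1 was -0.62 ± 0.13 (SE, edgeR adjusted p = 0.0359), lost without degarelix only replicate 3, 5 or 6 or FSH replicate 1, 2, 3 or 5 (edgeR adjusted p up to 0.0899). Of 11 tested genes of peroxisomal beta-oxidation, which shortens very long chains outside mitochondria, 4 had higher and 7 lower means (median -0.08) and none passed. Ehhadh, its bifunctional enzyme, had a log2 change of 0.50 ± 0.29 (SE, edgeR adjusted p = 0.337).

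**Figure D5:**
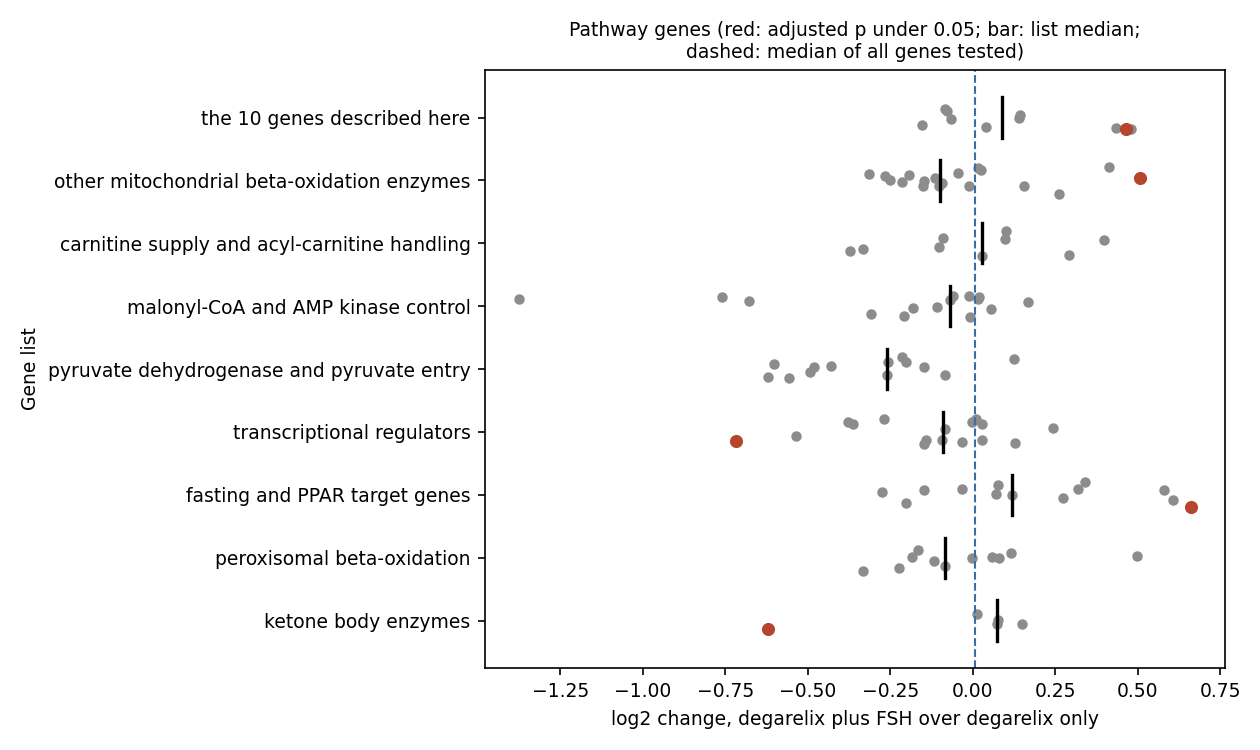
Log2 change (degarelix plus FSH over degarelix only) of every tested gene of the 10 genes and of the 8 pathway lists, with the median of each list and a line at the median of all genes. The pyruvate dehydrogenase list, which pools subunits of the complex with kinases that turn it off, has the lowest median (-0.26). The fasting and PPAR target list has the highest (0.12).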

How the data were processed

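RNA-seq counts of 11 rats were used, 5 given degarelix plus FSH and 6 degarelix only. The authors deposited raw whole-number counts per Ensembl gene. Their tools, per the submitters' processing notes, were STAR, edgeR and DESeq2, on build rn6. How reads were counted, and with which strand setting, is not given in the sources used here, so overlapping, antisense or near-identical genes are uncertain. Libraries were stranded paired-end, per the labels' protocols.

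Columns were assigned by names matching the labels, groups by the labels. One gene, Pcmt1, was left out because 1 cell holds a letter. Of 25275 rows, 17034 had a count and filterByExpr kept 12846. A count of 0 allows 0.127 to 0.228 CPM (3 counts, counting error only). The labels call the samples individual rats. No 2 libraries agreed within sampling noise (lowest chi-square per degree of freedom 22.4).

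edgeR 4.0.16 in R 4.3.3 was run with TMM factors and a robust quasi-likelihood test (9 residual degrees of freedom, biological coefficient of variation 0.191), with Benjamini-Hochberg adjustment. Intervals of 95% use the SE derived from that test and the 9 residual degrees of freedom. The test itself adds degrees of freedom borrowed across genes, so the intervals are somewhat wider than its p-values imply. Ratios used counts plus 0.5 and exact two-sided permutation (SciPy 1.17.1), adjusted over 5. On simulated data of 12846 genes for this comparison, the edgeR step recovered 7, 29, 38 and 47 of 50 genes changed 1.3-, 1.5-, 2- and 3-fold, with 7 false among 128 calls. The 10 genes and all lists were chosen with earlier results of these data known. Named list genes are those past the threshold, those with the 2 smallest p in each direction, and 15 listed by symbol, and the text gives those closest to the 10 genes. Some genes of these pathways are not reported here and were left out of the lists. Other scalings, filters, tools (DESeq2 1.42.0, limma 3.58.1), thresholds, a replicate block and leaving out each rat were alternatives.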

Additional observations from a re-analysis of the deposited data

Results flagged for a closer look

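Over 110 sets of values of 5 or 6 rats, 4 had a highest value far from the rest (Dixon's criterion), where chance flags about 1 in 20. Among the 10 genes, Pdk4 stood at 50.0 CPM in degarelix only replicate 4, against 22.2 CPM in the next rat. The log2 ratio of Cpt1a to Cpt1b was -0.28 in FSH replicate 2 and -0.81 in the next FSH rat. FSH replicate 3 had 11.2 CPM of Slc25a29, a mitochondrial carrier, against 6.49 CPM in the next FSH rat. Degarelix only replicate 1 had 18.5 CPM of Bdh1, against 13.4 CPM in the next.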

How the results depend on the processing

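Of 292 genes called, the count was 14 with the replicate block, 1135 with DESeq2, 962 at a threshold of 0.10 and 30 to 551 with 1 rat left out. Among the 10 genes (1 called), it was 0 with no low-count filter and with the replicate block, 2 with DESeq2 and at 0.10 (Cpt1a and Acacb), and 0 to 1 with 1 rat left out. The 4 called pathway genes became 0 with the replicate block, where the calls of Etfb, Vnn1, Rxra and Bdh1 all ended, 6 with DESeq2 and 0 to 7 with 1 rat left out. The replicate numbers share only a number: same-numbered rats correlated between -0.110 and 0.130, and none best with its own number. In the replicate block the log2 change of Cpt1a was 0.52 (edgeR adjusted p = 0.102), and the ratio differences were 0.69 for Cpt1a to Cpt1b, 0.61 for Cpt1a to Cpt2, 1.71 for Acacb to Acaca and 0.50 for Acacb to Mlycd, where 5 pairs can give no permutation p below 0.0625.

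With 1 rat left out, ratio differences ran from 0.49 to 0.69 for Cpt1a to Cpt1b, 0.43 to 0.63 for Cpt1a to Cpt2, 1.22 to 1.94 for Acacb to Acaca, 0.41 to 0.59 for Acacb to Mlycd and 0.79 to 1.31 for Pdk4 to Pdk2. Acadm turned to 0.00215 with library totals only, and Acadvl ran from -0.000707 to 0.106 with 1 rat left out. Keeping the group means, 1 pair of genes correlated past the threshold in place of 0. Cpt1a kept its call under the other scalings, limma-voom, edgeR without robust estimation and a filter of 1 CPM in 5 libraries. The causes of these shifts were not tested. Depth gave each of the 10 genes at least 184 counts in every library; folds near 1.3 were mostly missed on simulated data.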
